A study of Mus musculus with 28 samples.

Results

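Interferon-stimulated genes are the transcripts that cells raise when interferons are in their surroundings, and 36 of them were followed here in liver, quadriceps, heart and gastrocnemius of young and old mice. The members were listed by name, with earlier results of these data known: transcription factors, nucleic acid sensors, the IFIT and ISG15 proteins, oligoadenylate synthetases, Mx and other antiviral effectors, and the interferon-inducible GTPases. Each gene was read from the probe set with the highest mean on its array type. Of the 36, 32 were measured among 19928 genes in liver and quadriceps, 34 among 30063 genes in heart and gastrocnemius, and 31 in all 4 tissues. In liver and quadriceps, Isg15, Gbp2 and Igtp each had only a probe set that also names another gene, as did Ifi27 in heart and gastrocnemius. Those and Ifi44, for which no named probe set was found in either table, were not analysed there.

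The RNA came from female C57BL/6J mice, an inbred strain with no engineered allele or drug named in the labels, group housed on standard chow and killed after an overnight fast. Liver and quadriceps, a thigh muscle, had 3 arrays at 6 months (24 weeks) and 3 at 24 months (103 weeks). For heart and for gastrocnemius, which lies in the calf, 4 arrays at each age were run on another array type, for 28 arrays in all. The values are log2 expression from RMA, a method that corrects background, normalizes arrays and summarises the probes of a set, so a difference of 1 is a doubling. Nothing in the labels says that the arrays of a group came from separate animals, and the p-values therefore reflect only how far these samples differ among themselves, which may be technical.

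Interferons are secreted when cells sense foreign or misplaced nucleic acid. Signals from type I interferon receptors bring a complex that holds STAT2 and IRF9 to interferon-stimulated response elements, while interferon gamma acts on gamma-activated sequences. The induced proteins degrade viral RNA, block its translation, trap budding virus or attack the vacuoles of intracellular pathogens. Several are themselves sensors or transcription factors of the pathway, so that a small amount of interferon can prime a tissue. In liver these genes are known to be active in hepatocytes as well as in resident macrophages.

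The upstream sequences of members that lead the results below show what the response element looks like in this family. RefSeq promoters (GRCm38.p6) were found for 26 of the 36 members, and the 250 bases before each start site were searched on both strands for the response element core GAAANNGAAA, whose reverse complement is TTTCNNTTTC. Capitals mark that core, the sequence reads toward the gene's start, and the stretch ends before it.
Isg15: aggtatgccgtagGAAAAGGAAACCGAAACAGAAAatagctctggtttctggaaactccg
Ifit1: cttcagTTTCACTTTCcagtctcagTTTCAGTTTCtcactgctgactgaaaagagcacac
Stat2: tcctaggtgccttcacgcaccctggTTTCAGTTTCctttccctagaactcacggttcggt
Oas3: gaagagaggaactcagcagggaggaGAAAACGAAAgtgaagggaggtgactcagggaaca
Rsad2: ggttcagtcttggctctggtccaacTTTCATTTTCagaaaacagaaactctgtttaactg
Gbp7: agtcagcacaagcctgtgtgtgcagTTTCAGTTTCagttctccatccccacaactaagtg
Gbp2: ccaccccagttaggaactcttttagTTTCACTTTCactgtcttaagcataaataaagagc
These stretches lie at chr4:156200850-156200909 on the minus strand for Isg15, chr19:34640779-34640838 on the plus strand for Ifit1, chr10:128270251-128270310 on the plus strand for Stat2 and chr5:120777700-120777759 on the minus strand for Oas3. Those of Rsad2, Gbp7 and Gbp2 lie at chr12:26456538-26456597 on the minus strand, chr3:142530258-142530317 on the plus strand and chr3:142620579-142620638 on the plus strand. In Isg15, 3 overlapping copies of the core began between 78 and 66 bases before the start; Ifit1 held 2, at 104 and 85 bases. The single copy lay 53 bases before the start in Gbp7, 59 in Gbp2, 75 in Oas3, 120 in Rsad2 and 222 in Stat2.

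The core was present in 14 of the 26 members with a promoter (53.8%) and in 936 of 27025 genes (3.46%). Besides the 7 above, the members that held it were Ifit3, Oas1a, Bst2, Trim30a, Gbp3, Igtp and Irgm1. The gamma-activated sequence core TTCNNNGAA, which reads alike on both strands, was present in 7 of 26 members (26.9%) and 8.13% of genes. Those members were Irf1, Eif2ak2, Ifit2, Oas1a, Bst2, Gbp7 and Igtp. A match describes these letters in this window only and is not evidence of a factor bound there.

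The first result is where the family was expressed. At 6 months, 31 of the 32 members passed the threshold as higher in liver than in quadriceps and 0 as lower, against 40.7% of all genes called higher (limma, Benjamini-Hochberg adjusted p under 0.05). The median over members was 1.49 log2 units, with 0.10 over all genes. Iigp1, a GTPase that attacks the vacuoles of intracellular parasites, read 10.67, 10.62 and 10.46 in liver and 6.05, 5.62 and 5.56 in quadriceps. The ranges lay far apart, a difference of 4.84 (SE 0.15) or 28.6-fold as measured, with an adjusted p of 1.79e-12. Stat2, a subunit of the factor that binds the response element, read 9.14, 9.29 and 9.35 in liver and 6.57, 6.59 and 6.71 in quadriceps, a difference of 2.64 (SE 0.08, adjusted p 1.90e-12). Dhx58, which encodes the RNA sensor LGP2, read 7.40, 7.76 and 7.40 against 4.78, 5.09 and 4.87, a difference of 2.61 (SE 0.12, adjusted p 8.11e-11). In both genes every liver array was above every quadriceps array. The quadriceps values of Iigp1 and Dhx58 lay below the medians of those arrays (6.36 to 6.39), where a signal above background was not shown, so the measured folds may not give the full difference.

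The tissue difference varied within and between roles, and differences between roles were not tested. The 4 transcription factors were higher in liver by 1.44 to 2.64 and the 5 nucleic acid sensors by 1.55 to 2.61. The 10 Mx and other effectors were higher by 0.54 (Xaf1) to 2.26 (Bst2, the tetherin that holds budding virus at the cell surface). The 3 IFIT genes and Usp18 were higher by 0.43 (Ifit2) to 1.74 (Usp18). Of the 5 genes of the oligoadenylate synthetase family, Oas2 and Oas3 were higher by 0.28, Oasl2 by 0.44 and Oas1a by 0.48, and Oasl1 by more than the other 4. Every Oas3 value at 6 months lay below the median of its array in both tissues, where a signal above background was not shown. The 4 GTPases spanned the widest range, from 0.12 (Gbp7) to 4.84 (Iigp1). Gbp7, a guanylate-binding protein, was the member that did not pass (0.12, SE 0.14, adjusted p 0.471). Without 6-month liver replicate 3, Oas1a did not pass either (0.32, adjusted p 0.0620).

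In the other pair, 33 of 34 members passed as higher in heart than in gastrocnemius and 0 as lower, where 60.8% of all genes were called higher. The median over members was 0.99 and that over all genes 0.27. Oas2 read 6.80, 6.93, 6.78 and 6.66 in heart and 5.03, 5.13, 5.07 and 5.26 in gastrocnemius, a difference of 1.67 (SE 0.07, 3.18-fold, adjusted p 2.09e-12). Iigp1 read 7.79, 7.71, 7.32 and 7.47 against 6.24, 5.71, 5.70 and 6.28, a difference of 1.59 (SE 0.14, adjusted p 3.38e-08). Gbp2 read 7.71, 7.82, 7.56 and 7.44 against 6.24, 6.12, 6.25 and 6.31, a difference of 1.40 (SE 0.12, adjusted p 1.56e-08). No heart array overlapped a gastrocnemius array in any of the 3.
In this pair the synthetases Oas2, Oas1a (1.40) and Oasl2 (1.40) were among the members that differed most, and Oas3 (0.29) and Isg15 (0.40) among those that differed least. Every Isg15 value at 6 months lay below the median of its array in both tissues, where a signal above background was not shown. Irgm1, which controls the autophagy of intracellular bacteria, did not pass (0.17, SE 0.07, adjusted p 0.0519). With 6-month heart replicate 3 or 4, 24-month heart replicate 2, or 24-month gastrocnemius replicate 2 or 3 left out, all 34 members passed.

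Both tissue results depend in size on how the arrays are scaled. Centring each array on its median, quantile normalization and cyclic loess gave a member median of 1.38, 1.26 and 1.37 for liver against quadriceps, with 29, 30 and 31 members higher, and 0.68, 0.69 and 0.72 for heart against gastrocnemius, with 30, 30 and 31 higher. Over all genes, the share of calls that were higher fell from 59.7% to 49.3%, 44.4% and 50.6% in the first pair and from 80.5% to 41.3%, 48.3% and 50.0% in the second. The all-gene median in the second pair moved from 0.27 to -0.05, -0.01 and 0.00. Under all 3 scalings the heart difference turned to -0.03, -0.04 and -0.04 in Oas3 and to -0.15, -0.06 and -0.03 in Irgm1, none of them passing. Isg15 also did not pass under any of them, and Igtp not with the first 2. In the liver pair, centring left Oas2 (0.16) and Oas3 (0.16) below the threshold and quantile normalization Oas1a (0.33), and Gbp7 read 0.00, -0.15 and -0.04.

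Markers of immune cell types were read in both tissue comparisons, beside 40.7% and 60.8% of all genes called higher. In liver against quadriceps 9 of 12 macrophage, 8 of 12 T and NK cell and 6 of 7 B and plasma cell markers were higher. So were 3 of 10 neutrophil and 5 of 6 leukocyte markers, while 1 T and NK cell marker was lower. In heart against gastrocnemius the counts called higher, in that order, were 11 of 12, 9 of 12, 2 of 6, 7 of 10 and 4 of 6. There 1 neutrophil marker was lower. Of the plasmacytoid dendritic cell markers 1 of 6 was higher and 2 lower in liver, and 5 of 7 higher and 0 lower in heart. Their differences between liver and quadriceps ran from -6.28 to 2.10, so this list was not read as an amount of these cells. The macrophage markers' mean level on the 6-month arrays was 7.63 to 7.68 in liver, 6.74 to 6.84 in quadriceps, 6.82 to 6.97 in heart and 6.07 to 6.15 in gastrocnemius. The 7 endothelial markers were all higher in heart (9.09 to 9.16 against 7.51 to 7.83), while in liver 2 of 7 were higher and 4 lower. Of 37 other inducible genes 28 were higher and 2 lower in liver than in quadriceps, and 36 higher and 0 lower in heart than in gastrocnemius, while 6 of 16 and 7 of 18 ligands were higher. The part of these cell types in the members' difference was not tested, and in bulk tissue fewer cells of a type and less RNA per cell cannot be told apart.

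**Figure D1:**
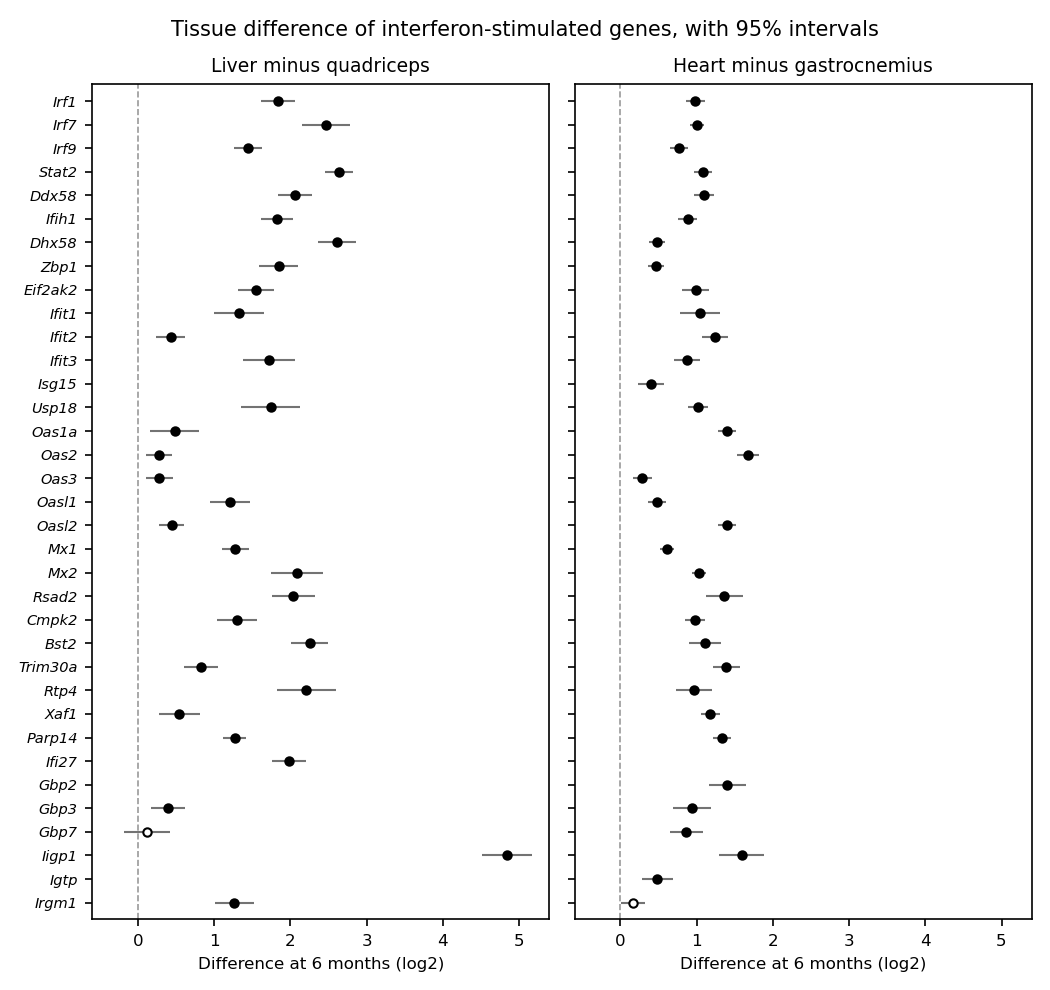
Difference between 2 tissues at 6 months (x axis, log2 units) for each interferon-stimulated gene measured (y axis), as points with 95% intervals from limma; filled points have an adjusted p under 0.05. Iigp1 stands furthest right for liver minus quadriceps (4.84), and the open points are Gbp7 (0.12) and Irgm1 (0.17).

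The comparison that the study was built for is 24 against 6 months in each tissue. No member passed the threshold in any of the 4 tissues. In liver 0 of 32 passed, with 0.326% of all genes called, and 6 of 32 had an unadjusted p under 0.05, where 32.8% of all genes did. The corresponding numbers were 0 and 4 of 32 in quadriceps (0.00502% and 7.06% of genes), 0 and 4 of 34 in heart (0.00665% and 5.99%) and 0 and 6 of 34 in gastrocnemius (0.00998% and 16.5%). The median age difference over the members was -0.02 in liver, 0.06 in quadriceps, 0.02 in heart and -0.04 in gastrocnemius, beside 0.03, 0.01, 0.01 and 0.02 over all genes. In liver the members' median was -0.11 with arrays centred, 0.04 with quantile normalization and 0.03 with loess. The all-gene liver median also varied with expression level, from 0.18 in class 4 of 10, counted from the dimmest, to -0.14 in class 9. Whether the members differed from other genes of their level was not tested.

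The intervals show the precision of each age difference. They hold for 1 gene at a time, are not adjusted for the number of genes, and rest on the values as scaled by the authors. The 95% interval of no member reached a difference of 1 in either direction in any tissue: the outermost bounds were -0.71 and 0.72 in liver, -0.68 and 0.72 in quadriceps, -0.44 and 0.42 in heart and -0.67 and 0.41 in gastrocnemius. The interval extended past 0.5 in either direction for 10 of 32 members in liver, 2 of 32 in quadriceps, 0 of 34 in heart and 1 of 34 in gastrocnemius.

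**Figure D2:**
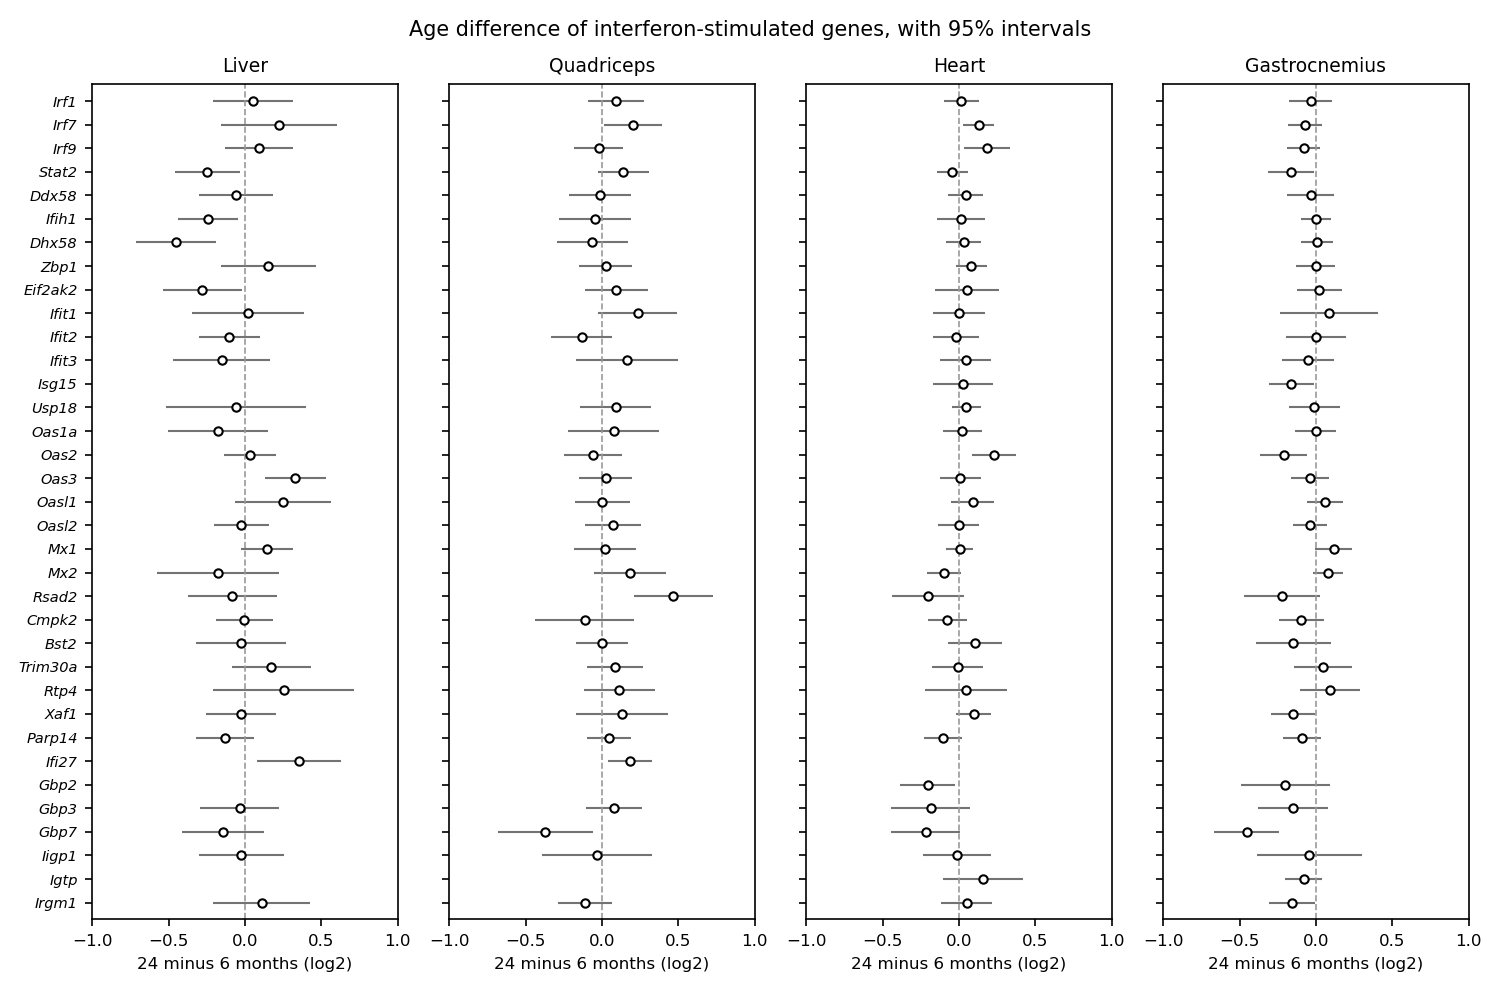
Age difference, 24 minus 6 months (x axis, log2 units), for each member (y axis) in the 4 tissues, as points with 95% intervals from limma; open points did not pass an adjusted p of 0.05. All points are open, and the furthest from 0 are Rsad2 in quadriceps (0.47), Dhx58 in liver (-0.45) and Gbp7 in gastrocnemius (-0.45).

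Liver held the members closest to the threshold. Dhx58 read 7.40, 7.76 and 7.40 at 6 months and 7.18, 6.95 and 7.08 at 24 months. The old arrays were all below the young ones (7.52 ± 0.21 and 7.07 ± 0.12, SD, n = 3 per age), a difference of -0.45 (SE 0.12) with an adjusted p of 0.0614. Oas3 went the other way, reading 6.04, 6.02 and 6.16 at 6 months and 6.52, 6.30 and 6.39 at 24 months. Its groups did not overlap either (0.33, SE 0.09, adjusted p 0.0633). Every Oas3 value lay below the median of its array (6.47 to 6.62 over the liver arrays), where a signal above background was not shown. Ifi27, a small interferon-induced membrane protein, read 10.24, 10.23 and 10.06, then 10.78, 10.50 and 10.31, with every old array above every young one (0.35, SE 0.12, adjusted p 0.0937).

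By role, the liver differences had no common direction. Of the 5 nucleic acid sensors, the RNA sensors Ddx58 (RIG-I), Ifih1 (MDA5) and Dhx58 and the kinase Eif2ak2 (PKR), which halts translation on sensing double-stranded RNA, had lower means at 24 months, from -0.06 to -0.45, and Zbp1, a sensor of Z-form nucleic acid, a higher one (0.15). Ifih1 (-0.24, adjusted p 0.0977) and Eif2ak2 (-0.28, adjusted p 0.129) had unadjusted p-values under 0.05, as did Stat2 (-0.25, adjusted p 0.115). The other 3 transcription factors had higher means: Irf1 by 0.05, Irf9 by 0.09 and Irf7, which drives further interferon production, by 0.22. The IFIT genes, whose products bind foreign RNA, and Usp18, which removes ISG15 from proteins, lay between -0.15 and 0.02. The 4 measured GTPases lay between -0.14 and 0.11. The count of members with a higher mean at 24 months was 13 of 32, and between 10 and 17 under the 3 other scalings. Over all genes it was 10828 of 19928.

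The liver calls changed with the fit. Dhx58 passed with arrays centred, with dim genes left out, with an intensity trend and robust prior, with array weights, in the joint fit with quadriceps and without 24-month replicate 3, and its adjusted p ranged from 0.00591 to 0.181 over 15 alternatives. Without 24-month replicate 3, 2852 genes of the tissue were called higher and 2221 lower in place of 28 and 37, and the members called were Oas3 (0.34), Ifi27 (0.46), Dhx58 (-0.46) and Eif2ak2.
Immune-cell markers had higher means in old liver, none passing the threshold. The 12 T and NK cell markers had a mean level of 5.50 to 5.68 at 6 months and 5.70 to 5.97 at 24 months, the 7 B and plasma cell markers 5.85 to 6.09 and 6.24 to 6.73, the 10 neutrophil markers 5.22 to 5.34 and 5.47 to 5.65, and the 6 pan-leukocyte markers 7.39 to 7.45 and 7.49 to 7.78. In these 4 lists the means of 11 of 12, 6 of 7, 10 of 10 and 6 of 6 were higher at 24 months. So were those of all 7 skeletal muscle fibre markers, at 5.66 to 5.77 and 5.88 to 6.10, again with 0 passing. Over all genes of liver expression classes 2 to 5 of 10, counted from the dimmest, the median age differences were 0.14 to 0.18. The 12 macrophage markers, at 7.63 to 7.68 and 7.56 to 7.92, overlapped between the ages. Their part in the members' values was not tested.

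In quadriceps the member that differed most was Rsad2, which encodes viperin, an enzyme that makes a chain-terminating nucleotide against viral polymerases. It read 5.98, 6.03 and 5.91 at 6 months and 6.66, 6.46 and 6.20 at 24 months. All old arrays were above all young ones, but they spread more widely (5.97 ± 0.06 and 6.44 ± 0.23, SD, n = 3 per age). The difference was 0.47 (SE 0.11, adjusted p 0.565). The young Rsad2 values lay below the medians of those arrays (6.36 to 6.39), where a signal above background was not shown. So did 24-month replicate 3. Gbp7 read 7.58, 7.36 and 7.14, then 7.11, 7.12 and 6.74, again with no overlap (-0.37, SE 0.14, adjusted p 0.653). Ifi27 read 8.22, 8.17 and 8.19, then 8.34, 8.40 and 8.39 (0.18, SE 0.06, adjusted p 0.621). Ifit1 read 6.87, 6.54 and 6.48, then 6.75, 6.86 and 6.98, with overlapping ages (0.23, SE 0.11, adjusted p 0.721).
Irf7 was the fourth member with an unadjusted p under 0.05 (0.20, adjusted p 0.678). Means were higher at 24 months for 21 of 32 members, lower for 10 and equal for Bst2. Over all 19928 genes 10422 were higher and 9243 lower. The synthetases lay between -0.06 and 0.08, the sensors between -0.06 and 0.09, the IFIT genes and Usp18 between -0.13 and 0.23, and the GTPases between -0.37 and 0.08. The call of 0 members held under every alternative run in quadriceps.

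In heart, Oas2 read 6.80, 6.93, 6.78 and 6.66 at 6 months and 7.05, 6.93, 7.11 and 7.0 at 24 months. The ages met at 6.93, and the difference was 0.23 (SE 0.06, adjusted p 0.507). Irf7 read 6.90, 6.91, 6.82 and 6.80, then 7.0, 7.04, 6.96 and 6.95, and Irf9, the DNA-binding partner of STAT2, read 6.96, 6.91, 6.95 and 6.73, then 7.20, 7.06, 7.01 and 7.01. In both, each old array was above each young one, by differences of 0.13 (SE 0.05, adjusted p 0.691) and 0.18 (SE 0.07, adjusted p 0.721). The GTPases Gbp2 and Gbp7 went the other way. Gbp2 read 7.71, 7.82, 7.56 and 7.44, then 7.46, 7.41, 7.34 and 7.50 (-0.21, SE 0.08, adjusted p 0.762), and Gbp7 read 8.30, 8.48, 8.10 and 7.97, then 7.96, 7.98, 7.94 and 8.10 (-0.22, SE 0.10, adjusted p 0.844). The ages overlapped in both.
The remaining heart values were small. The 5 sensors lay between 0.01 and 0.08, the 5 IFIT and ISG15 system genes between -0.02 and 0.05, and the 9 Mx and other effectors between -0.20 (Rsad2) and 0.11 (Bst2). Means were higher at 24 months for 22 of 34 members, and for 17 or 18 under the other scalings. Over all genes 16627 of 30063 were higher. The 7 endothelial markers, all with lower means at 24 months and 0 passing, had a mean level of 9.09 to 9.16 at 6 months and 8.99 to 9.06 at 24 months, and their part was not tested.

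In gastrocnemius the leading member was Gbp7, at 7.45, 7.31, 7.18 and 7.45 at 6 months and 7.04, 6.70, 7.05 and 6.79 at 24 months. No old array reached the lowest young one (7.35 ± 0.13 and 6.90 ± 0.18, SD, n = 4 per age), a difference of -0.45 (SE 0.10, 95% interval -0.67 to -0.24, adjusted p 0.103). It passed in 1 of 17 alternatives, the joint fit with heart (adjusted p 0.0328; range over the alternatives 0.0328 to 0.257). Oas2 read 5.03, 5.13, 5.07 and 5.26, then 5.03, 4.85, 4.96 and 4.80, the ages meeting at 5.03 (-0.21, SE 0.07, adjusted p 0.192). Its values on 24-month replicates 2 and 4 lay below the medians of those arrays (4.95 and 4.96), where a signal above background was not shown. Isg15, the ubiquitin-like protein attached to newly made proteins, read 4.29, 4.21, 4.03 and 4.15, then 3.97, 3.93, 4.02 and 4.11 (-0.16, SE 0.07, adjusted p 0.266). Rsad2 read 6.35, 5.92, 5.98 and 6.11, then 5.91, 5.90, 6.04 and 5.61 (-0.23, SE 0.11, adjusted p 0.346). In the last 2 the ages overlapped. Every Isg15 value lay below the gastrocnemius array medians (4.88 to 4.97), where a signal above background was not shown.

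All 6 members with an unadjusted p under 0.05 in gastrocnemius had lower means at 24 months: Gbp7, Oas2, Isg15, Stat2 (-0.16), Xaf1 (-0.15) and Irgm1 (-0.16). Over all genes 2721 of the 4958 with such a p had lower means. All 6 GTPases and all 4 transcription factors had lower means, with medians of -0.16 and -0.08, and 0 of them passed. The highest difference was that of Mx1 (0.12, adjusted p 0.322), an antiviral GTPase of which C57BL/6 carries a defective allele. Every Mx1 value lay below the gastrocnemius array medians (4.88 to 4.97), where a signal above background was not shown. Over all members 24 of 34 means were lower, 8 higher and those of Ifih1 and Ifit2 equal. Under the other scalings 7 were higher. Over all 30063 genes 13225 means were lower and 16546 higher.
Other cell markers also differed in their means, none passing the threshold. The 12 macrophage markers had a mean level of 6.07 to 6.15 at 6 months and 6.24 to 6.42 at 24 months, with 11 of 12 means higher, and the 7 endothelial markers 7.51 to 7.83 and 7.21 to 7.65, with all 7 lower. The means of 11 of 12 T and NK cell, 6 of 6 B and plasma cell and 6 of 6 leukocyte markers were higher at 24 months. On 24-month replicate 1 the B and plasma cell markers were at 6.17 and the leukocyte markers at 6.70, against 5.11 to 5.46 and 5.68 to 6.03 on the other 7 arrays. The part of these cells in the members' values was not tested.

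**Figure D3:**
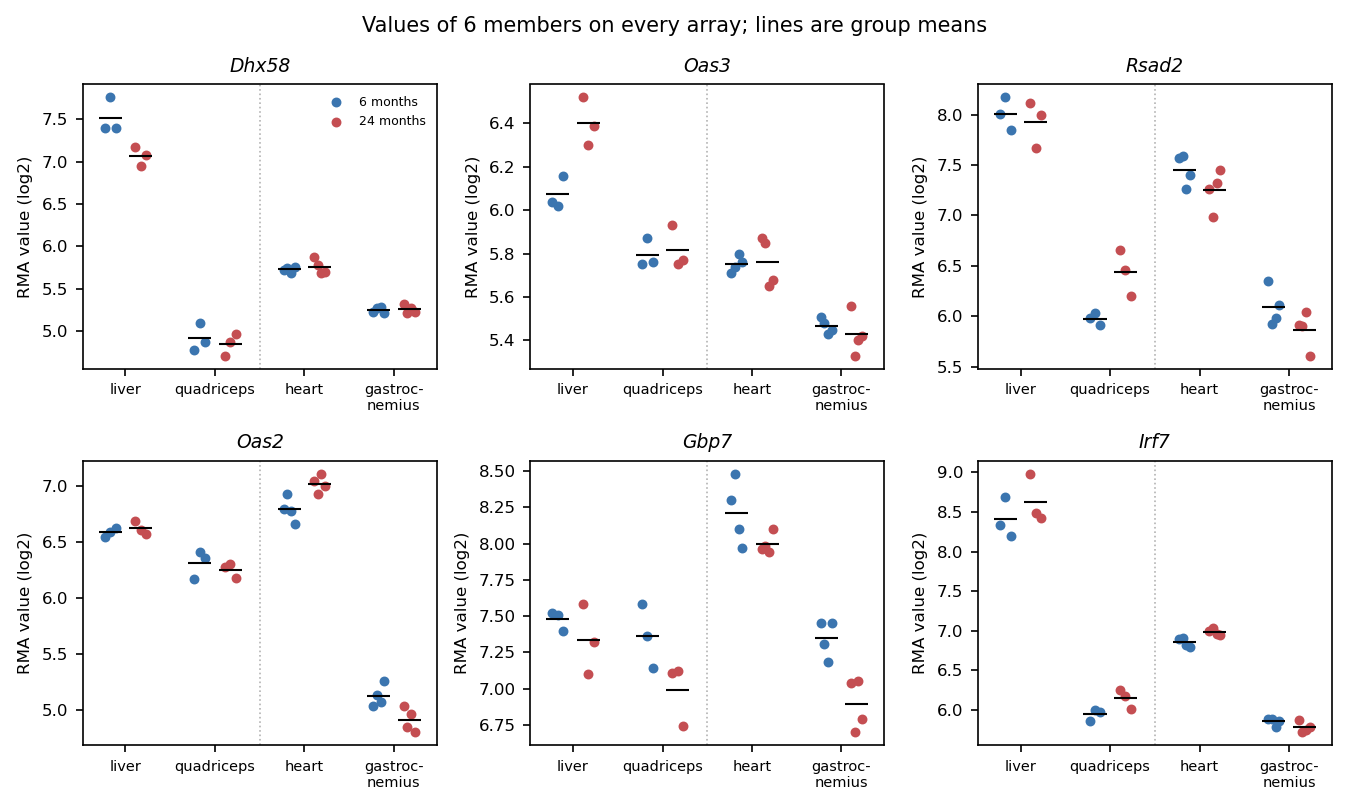
Values (y axes, RMA log2 units) of Dhx58, Oas3, Rsad2, Oas2, Gbp7 and Irf7 on every array, by tissue and age (blue, 6 months; red, 24 months), with lines at group means; levels left and right of the dotted line come from different array types and are not comparable. Gbp7 means were lower at 24 months in all 4 tissues, while Oas2 was higher at 24 months in heart (0.23) and lower in gastrocnemius (-0.21).

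Few members had age differences of the same direction in all 4 tissues, but their share was near that of all genes, and the shares were not compared by a test. Ifit1, Oasl1, Mx1 and Rtp4 had higher means at 24 months in all 4 tissues, and Cmpk2, Gbp7 and Iigp1 lower means, together 7 of the 31 members measured in all (22.6%). Over all 18974 genes the share was 18.8%. Every Mx1 value lay below the median of its array in all 4 tissues, where a signal above background was not shown. So did those of Cmpk2 and Iigp1 in quadriceps and of Rtp4 in quadriceps and gastrocnemius. Gbp7 differed by -0.14 in liver, -0.37 in quadriceps, -0.22 in heart and -0.45 in gastrocnemius. Rsad2 differed by -0.08, 0.47, -0.20 and -0.23 in the same order.

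Whether age acted differently in 2 tissues was tested as an interaction within each array type. Between liver and quadriceps 0 of 32 members passed (0.0151% of all genes) and 5 had an unadjusted p under 0.05 (19.8% of genes). The smallest p-values were those of Stat2, -0.25 in liver and 0.14 in quadriceps (difference -0.39, SE 0.12, adjusted p 0.134), Rsad2 (-0.55, SE 0.18, adjusted p 0.151) and Oas3 (0.31, SE 0.12, adjusted p 0.183). Between heart and gastrocnemius 0 of 34 passed (0.595% of genes) and 5 had an unadjusted p under 0.05 (13.8%). Oas2, higher by 0.23 in old heart and lower by 0.21 in old gastrocnemius in the values above, gave a difference of 0.44 (SE 0.10, 95% interval 0.24 to 0.65) with an adjusted p of 0.0510. It passed in 5 of 24 alternatives, with adjusted p-values from 0.0253 to 0.116. As given above, some of the old gastrocnemius values of Oas2 lay below their array medians. Irf9 (0.26, SE 0.08, adjusted p 0.165), Irf7 (0.20, SE 0.06, adjusted p 0.173), Xaf1 (0.25, adjusted p 0.186) and Mx2 (-0.17, adjusted p 0.232) followed.

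The members varied from array to array within an age. In liver their standard deviation within an age had a median of 0.17 over members and 0.12 over all genes; it was 0.11 and 0.10 in quadriceps, and 0.10 and 0.09 in heart, and 0.10 for both in gastrocnemius. The widest in liver were Rtp4, a chaperone of receptors, with 0.35, and Usp18, also 0.35. Rtp4 read 7.94, 8.21 and 7.61 at 6 months and 8.58, 7.79 and 8.15 at 24 months; Usp18 read 8.41, 8.87 and 8.25, then 8.80, 8.06 and 8.49. In both genes replicate 2 was the highest young array and replicate 1 the highest old array, and the lowest were replicate 3 and replicate 2.

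Counted separately, and not always in the same members, each of these positions was the most frequent over the liver members. Replicate 2 was the highest of the 3 young arrays for 18 of 32 members (56.2%; 29.6% of all genes) and replicate 3 the lowest for 19 (59.4%; 34.2%). At 24 months replicate 1 was the highest for 24 of 32 (75%; 37.4% of all genes) and the lowest for 0, and replicate 2 the lowest for 19 (59.4%; 25.3%). The mean over members was 7.96, 7.69 and 7.80 on the 3 old arrays and 7.81, 7.92 and 7.74 on the 3 young ones, so that the old arrays lay on both sides of the young. Replicate 1 at 24 months also had the highest mean level of T and NK cell (5.97), B and plasma cell (6.73), leukocyte (7.78) and macrophage markers (7.92) of the liver arrays, and replicate 2 had exocrine pancreas markers at 9.45, against 6.12 to 6.61 on the other liver arrays. Their part in the members' order was not tested.

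The other tissues each had an array of low members. In quadriceps, 6-month replicate 3 was the lowest young array for 17 of 32 members (53.1%; 33.8% of all genes). In heart, 6-month replicate 4 was the lowest of its 4 for 20 of 34 (58.8%; 18.3%), and in gastrocnemius 24-month replicate 2 for 19 of 34 (55.9%; 17.6%). The mean over members on the 2 ages was 6.31 ± 0.07 and 6.36 ± 0.04 in quadriceps, 6.66 ± 0.08 and 6.67 ± 0.04 in heart (SD, n = 3 and n = 4 per age), and 5.69 ± 0.04 and 5.62 ± 0.08 in gastrocnemius. In each of the 4 tissues the ages overlapped. Beside these arrays, adipocyte markers were at 7.55 on 6-month quadriceps replicate 3 and at 8.13 to 8.89 on the other quadriceps arrays; their part in the members' order was not tested.

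**Figure D4:**
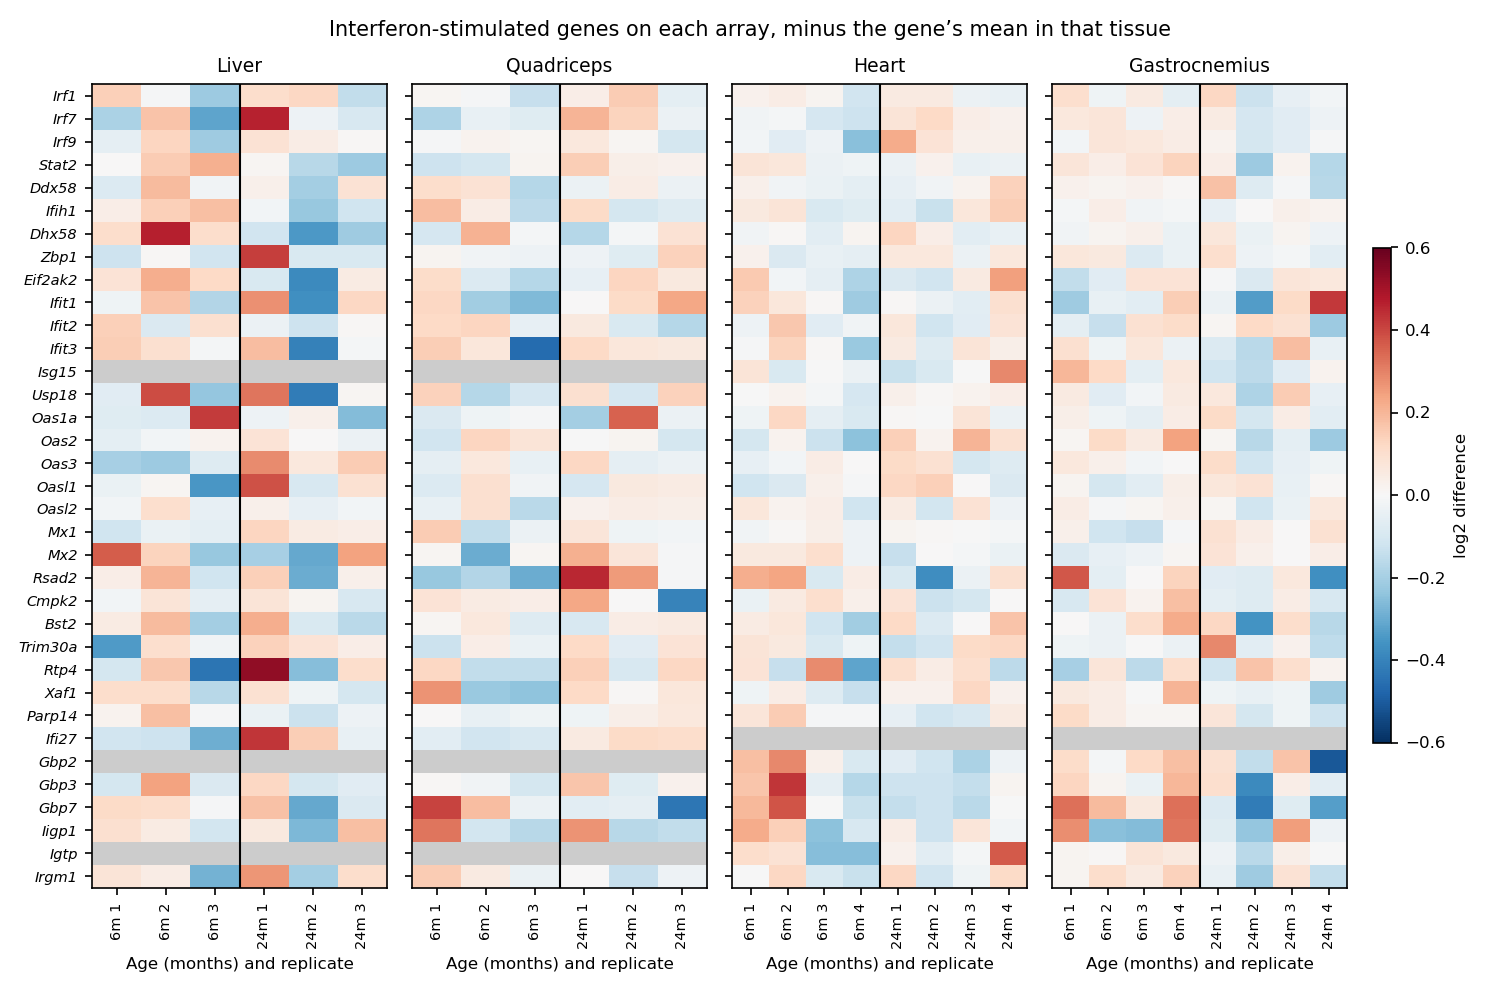
Each member (y axis) on each array (x axis, age and replicate), as its log2 value minus its mean in that tissue (colour scale from -0.6 to 0.6); grey rows were not analysed in that tissue. In liver the column of 24-month replicate 1 is mostly red and that of 24-month replicate 2 mostly blue, with member means of 7.96 and 7.69.

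The rest of the pathway was read from 4 further lists, in which 0 genes passed the threshold for age in any tissue. The ligands were 16 measured genes in liver and quadriceps and 18 in heart and gastrocnemius. In liver 15 of the 16 had higher means at 24 months (median 0.18), led by the interferon lambda gene Ifnl2, which went from 8.31 ± 0.14 to 8.81 ± 0.29 (SD, n = 3 per age, adjusted p 0.0681), and the interferon beta gene Ifnb1, from 4.55 ± 0.09 to 4.92 ± 0.23 (adjusted p 0.0864). Ifnb1 lay below the liver array medians (6.47 to 6.62), where a signal above background was not shown. Mean levels of the ligands over the liver and quadriceps arrays ran from 3.5 (Ifna11) to 8.18 (Ifnl2). Over all liver genes 10828 of 19928 means were higher at 24 months. In liver expression classes 2 to 5, counted from the dimmest, the all-gene median differences were 0.14 to 0.18, near the median of the ligands. Ifnl2, however, lay above the liver array medians, and in classes 7 to 10 the all-gene median differences were -0.08 to -0.14. Whether the ligands differed from other genes of their level was not tested. In quadriceps 8 of the 16 had higher means (Ifna13 0.56, adjusted p 0.567; Ifna12 -0.24, adjusted p 0.593), in heart 12 of 18 (Ifna12 0.15 and Ifna5 0.14, adjusted p 0.785 and 0.814) and in gastrocnemius 11 of 18 (Ifnk -0.21 and Ifne -0.16, adjusted p 0.216 and 0.310).

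Of the 14 measured genes of the receptors and the JAK-STAT core, those with the smallest p-values in liver were Tyk2, a kinase of the type I receptor (-0.25, adjusted p 0.0916), and Socs1, an inhibitor of the pathway (0.34, adjusted p 0.0919). Jak2, which serves the interferon gamma receptor, was lower in old quadriceps by 0.39 (adjusted p 0.558) and in old heart by 0.10 (adjusted p 0.941), and Ifnar2, a chain of the type I receptor, lower in old quadriceps by 0.25 (adjusted p 0.671). Socs3 differed by 0.09 in heart (adjusted p 0.954). In gastrocnemius the interferon gamma receptor chain Ifngr2 differed by -0.30 (adjusted p 0.167) and the phosphatase Ptpn2 by 0.17 (adjusted p 0.216).

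Of the 19 sensing and induction genes, the kinase Tbk1 and the adaptor Myd88 differed by -0.32 and -0.23 in liver (adjusted p 0.0753 and 0.0907), and Tlr9 and Trex1 by 0.19 and -0.16 in quadriceps (adjusted p 0.693 and 0.703). The DNA sensor Ifi204 and the RNA receptor Tlr7 differed by 0.35 and 0.18 in heart (adjusted p 0.365 and 0.688), and Tlr7 and Aim2 by 0.29 and 0.20 in gastrocnemius (adjusted p 0.207 and 0.269).

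Of the 37 other inducible genes, Tdrd7 differed by -0.24 in liver and 0.24 in quadriceps (adjusted p 0.0773 and 0.572). Ifi27l2a, a relative of Ifi27, differed by 0.26 in liver (adjusted p 0.0808) and Slfn8 by 0.22 in quadriceps (adjusted p 0.591). In gastrocnemius Znfx1 differed by -0.13 and Ifitm3, which blocks virus entry, by -0.22 (adjusted p 0.276 and 0.291). In heart Apol9b differed by 0.22 (adjusted p 0.783). Lgals3bp, a secreted galectin-binding glycoprotein, went from 8.69 ± 0.06 to 9.06 ± 0.11 in heart (adjusted p 0.160) and from 7.75 ± 0.08 to 7.59 ± 0.11 in gastrocnemius (SD, n = 4 per age). The difference of those age differences, 0.52 (SE 0.09), was the only one of this list to pass in the heart and gastrocnemius interaction (adjusted p 0.0287). Of the 12 macrophage markers 1 passed the same test, Mrc1 (-0.43, adjusted p 0.0491), and its part was not tested.

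Quality of the arrays touches these values as follows. Between 27 and 28 of the 32 members were at or above the array's median in liver and between 15 and 19 in quadriceps; of 34, 32 were in heart and 28 or 29 in gastrocnemius. Values below it were not shown to exceed background. The labelled tissues carried their own markers, with mean levels of 13.8 to 13.9 for hepatocytes in liver, 13.5 to 13.6 and 13.0 to 13.2 for skeletal muscle fibres in quadriceps and gastrocnemius, and 11.7 to 12.2 for cardiomyocytes in heart. Hepatocyte markers in quadriceps ranged from 6.99 to 9.52 between arrays. The interquartile range of the liver arrays ran from 2.43 to 2.79, the 3 old arrays having the narrowest.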

How the data were processed

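Log2 expression values, 1 per probe set and array, were used as the authors deposited them in 2 tables, 1 per array type. RMA is named, without a version, in the submitters' processing notes; the sets of arrays it was run on are not stated in these sources. Probe sets with 1 gene symbol were kept (21797 of 28944 and 30604 of 65956), and symbols were updated through RefSeq (GRCm38.p6). Groups came from the labels. Ages were compared per tissue in R 4.3.3 with limma 3.58.1 (lmFit, eBayes, two-sided), adjusted by Benjamini-Hochberg over all genes of the table, threshold 0.05; interactions and tissue differences came from a fit of both tissues. Levels were not set across array types. Fits were tested on simulated data. Members and lists were chosen with earlier results of these data known. Named in full are members past the threshold, the 3 with the largest difference and the 3 of smallest p per tissue and the 3 largest tissue differences, and per pathway list and tissue the 2 of smallest p; Rtp4 and Usp18 were chosen for their spread. Alternatives were 3 other normalizations, a filter on dim genes, every probe set, trend with robust prior, array weights, a replicate block, a joint fit and leaving out each array. The number of arrays limits the precision.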

Additional observations from a re-analysis of the deposited data

Results flagged for a closer look

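In 6 of 136 sets of 4 arrays of one gene, tissue and age, 1 array stood apart from the others by Dixon's criterion; chance alone gives about 1 in 20. Stat2 read 7.40 on 24-month heart replicate 2 and 7.33 to 7.34 on the others. Ifih1 read 5.32 on 6-month gastrocnemius replicate 2 and 5.26 to 5.27 on the others. On 24-month heart replicate 3, Zbp1 read 5.74 and the others 5.84, and Xaf1 read 7.36 and the others 7.26. Xaf1 read 5.72 on 24-month gastrocnemius replicate 4 and 5.89 to 5.91 on the others. Gbp3, a guanylate-binding protein, read 6.54 on 24-month heart replicate 4 and 6.38 to 6.40 on the others.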

How the results depend on the processing

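Of 517 values of the 28 named member results under alternatives, 496 kept their direction and side of the threshold, 21 newly passed and 0 reversed. In liver the members called changed from 0 higher and 0 lower to 0 and 2 with arrays centred, 0 and 1 with dim genes left out, 1 and 1 with trend and robust prior, 2 and 6 with array weights, 2 and 1 in the joint fit, and 0 to 2 in each direction when leaving out arrays. The joint fit called 1 gastrocnemius member lower (Gbp7). Array weights called 3 members lower in the liver and quadriceps interaction, with a member median of -0.13. In the heart and gastrocnemius interaction, 1 member (Oas2) was higher with dim genes left out, with trend and robust prior and with array weights, and 0 to 1 when leaving out arrays: it passed without 6-month gastrocnemius replicate 1 (0.47) or 24-month replicate 3 (0.46). The liver and quadriceps member median of 1.49 became 1.26 with quantile normalization, 1.38 with centring, 1.37 with loess and 1.73 with dim genes left out; that of heart and gastrocnemius, 0.99, became 0.69, 0.68 and 0.72 with the first 3. The causes were not tested.

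Counts of all genes called moved by over 1.5 times in liver: from 28 higher and 37 lower to 4 and 4 with quantile normalization, 347 and 1613 with centring, 558 and 1206 with dim genes left out, 0 and 0 with every probe set, 979 and 1264 with trend and robust prior, 4380 and 3517 with array weights and 1937 and 1688 in the joint fit, and 0 to 2852 higher and 0 to 2221 lower when leaving out arrays. In the other tissues the joint fit called 8 higher and 7 lower in quadriceps (0 and 1 in the report), 17 and 8 in heart (2 and 0) and 197 and 632 in gastrocnemius (3 and 0), and array weights called 1361 and 1162 in the liver and quadriceps interaction (1 and 2) and 560 and 179 in that of heart and gastrocnemius (147 and 32). Within a tissue, same-numbered samples of both ages deviated together in 3 of 4 gastrocnemius pairs (correlations 0.13, 0.21 and 0.30) but not for replicate 2 (-0.04). In liver, quadriceps and heart the correlations ran from -0.22 to 0.16. Since no tissue had every pair above 0.1, the numbers were not taken to pair the ages. Deviations were not compared between tissues. With the replicate number as a block, 0 members were called for age in any tissue or in either interaction, and 31 and 33 members were higher in the tissue comparisons.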
